A study of Mus musculus with 2 samples.

Results

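The subunits of the Polycomb repressive complexes were examined in 2 RNA-seq libraries of mouse embryonic fibroblasts. They comprised 35 genes, taken by gene symbol, of the 51912 gene rows in the deposited count files, of which 23 encode subunits of Polycomb repressive complex 1 (PRC1) and 12 encode subunits of Polycomb repressive complex 2 (PRC2). Each symbol matched 1 row, and all 35 genes averaged 1 CPM or more over the libraries (CPM are counts scaled to equal library depth). The UKS library came from fibroblasts immortalized with SV40 T antigen in which adenoviral Cre had removed the floxed Usp16 alleles (Usp16-/-). The KS library came from SV40 T fibroblasts with wild-type Usp16 (Usp16+/+) that had received the same Cre virus. Both lines were on a C57BL/6 background, and the labels give neither the number of embryos or clones behind a line nor the Usp16 exons removed. With 1 library per group no difference could be tested against replicates. Every value therefore describes these 2 libraries, and a threshold of 2-fold is a rule of size.

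Polycomb complexes keep developmental genes silent. PRC1 is a ubiquitin ligase that attaches ubiquitin to histone H2A, and PRC2 is a methyltransferase for lysine residues of histone H3. USP16, the enzyme deleted here, removes ubiquitin from histone H2A and so acts against the PRC1 reaction. In both complexes a fixed catalytic core combines with alternative subunits encoded by paralogous genes, and the choice of paralog sets where the complex binds and how active it is.

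The libraries held 23205734 counts (UKS) and 26561600 counts (KS) after rounding. Usp16 itself had 459 counts in UKS, against 1195 counts in KS, 2.30-fold lower [2.07 to 2.57], so that 43.4% of the KS level was still counted in the library labelled Usp16-/-. Brackets hold exact 95% intervals of the ratio of counts, which cover counting error only, on scaled levels without a pseudocount. Among 13015 genes averaging 1 CPM or more, 5.81% stood 2-fold or more higher in UKS and 10.7% 2-fold or more lower. Their median log2 ratio was 0.03. All 10 fibroblast markers had counts in both libraries, with summed levels of 20805 CPM in UKS and 18482 CPM in KS. Fn1 alone gave 14582 CPM of the sum in UKS and 8995 CPM in KS. Col1a1, Col1a2, Col3a1 and Vim were lower in UKS within 2-fold, and Thy1 and Pdgfra past 2-fold lower. Fn1, Pdgfrb and Lum were higher in UKS within 2-fold, and Dcn past 2-fold higher. Lum was low (2.23 CPM in UKS, 0.947 CPM in KS) and lay within 2-fold only with a pseudocount of 1 CPM added (log2 ratio 0.73). Markers of other cell types were low: epithelial markers summed to 1.499 CPM in UKS and 3.79 CPM in KS, endothelial markers to 2.14 CPM in UKS and 2.42 CPM in KS, blood markers to 4.88 CPM in UKS and 5.91 CPM in KS, and neural markers to 22.2 CPM in UKS and 29.5 CPM in KS. Skeletal muscle markers summed to 0.343 CPM in UKS and to 0 in KS, and pluripotency and germ cell markers to 0.557 CPM in UKS and 0.303 CPM in KS. Cd3e, Sox10, Myog and Dppa3 were at 0 in both libraries, and the part of other cells in the results was not tested. In such bulk libraries, fewer cells that express a gene and less of its RNA per cell cannot be told apart. The lines also differed in sex-linked transcripts. Xist had 6998 counts in UKS and 1 in KS, and 4 Y-linked genes summed to 9 counts in UKS and 5009 in KS, so the deletion cannot be told apart from a difference in origin between the lines.

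Of the 35 subunit genes 4 stood at least 2-fold lower in UKS (11.4%, against 10.7% of all genes), none at least 2-fold higher (against 5.81%) and 31 lay within 2-fold. The 4 were Mga, Phc3, Scml2 and Pcgf5, and each encodes a PRC1 subunit. They made up 17.4% of the 23 PRC1 genes, against 0 of 12 PRC2 genes and 10.7% of all genes. The PRC2 gene Suz12 lay just inside the threshold, at a log2 ratio of −0.97. The PRC1 genes had a median log2 ratio of −0.20, with 8 above 0 and 15 below, and the PRC2 genes had a median of −0.07, with 6 above 0 and 6 below. Over all 35 genes the median was −0.18 and the share below 0 was 60%, against 48.1% of all genes tested. The ratio used throughout is log2((UKS + 1)/(KS + 1)) on CPM scaled by the TMM method, with a pseudocount of 1 CPM, which understates the difference of low genes. Ratios of UKS over KS followed the length and GC content of the transcript across the whole transcriptome. A value with that trend removed, from a robust regression on all genes outside the Polycomb lists, is therefore given beside many of the plain ones. On that scale all 35 genes lay within 2-fold (against 5.49% of all genes past 2-fold higher and 4.98% past 2-fold lower), and Usp16 had a log2 ratio of −0.88 (−1.16 as counted). The sign of 9 subunit genes depended on that step. Ezh2, Mtf2, Aebp2, Rnf2, Pcgf3 and Yaf2 were below 0 as counted and above 0 with the trend removed, and Phf1, Pcgf2 and Cbx2 the other way round.

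**Figure D1:**
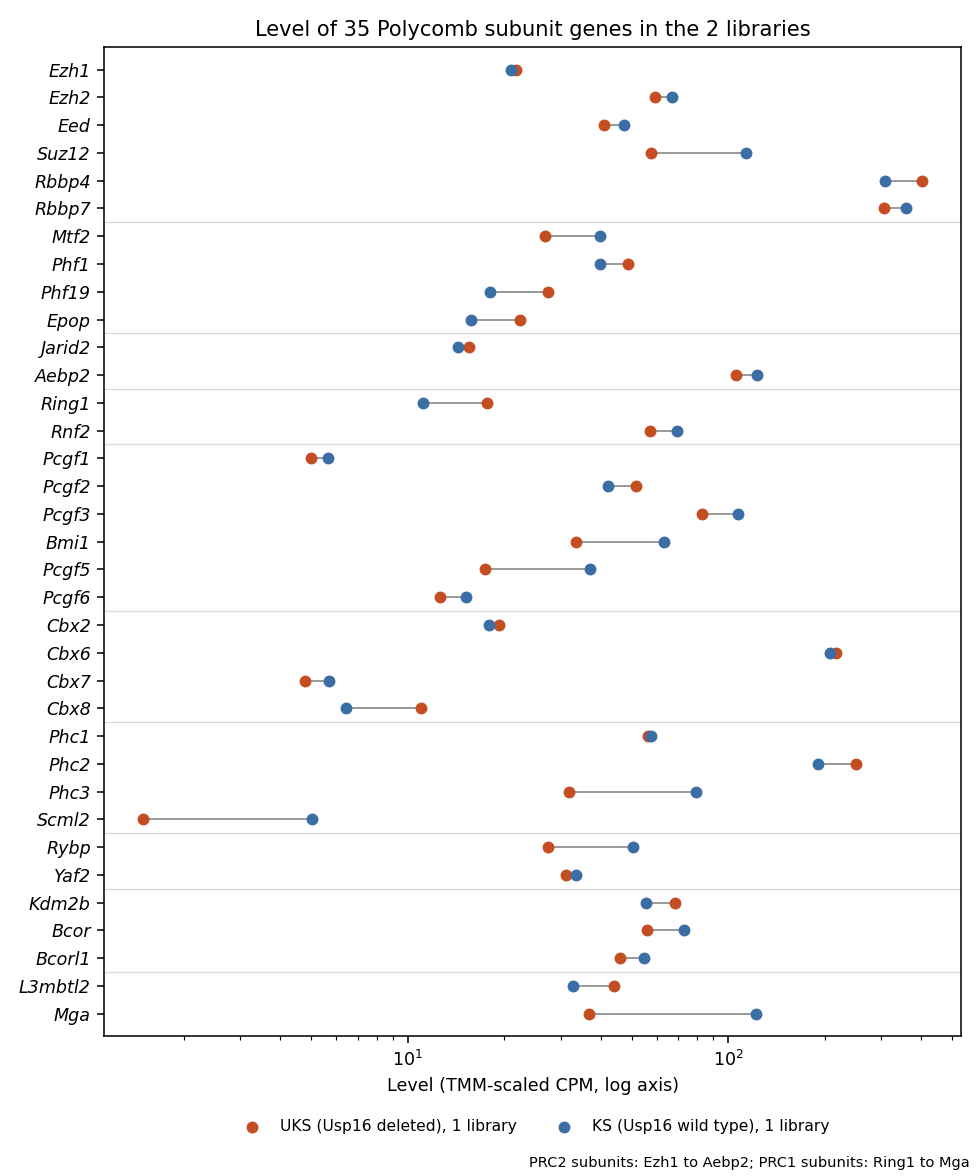
Levels of the 35 subunit genes in TMM-scaled CPM on a log axis, with UKS in orange and KS in blue, 1 library each, and grey rules between functional groups. Mga, Phc3, Scml2 and Pcgf5 show the widest gaps with KS to the right, and Cbx8 and Ring1 the widest with UKS to the right.

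The paralogous genes that results below turn on hold stretches that encode nearly the same amino acids with different bases. The stretches come from pairs whose members stood on opposite sides of equal levels in these libraries, and other pairs did so too. In both pairs shown the GC-richer gene had the higher ratio as counted. Among the others on opposite sides, the GC-poorer gene was the higher in Rbbp4 and Rbbp7 and in Cbx6 and Cbx7. These have nearly equal GC content, and in the rest the GC-richer gene was the higher. RING1 and RNF2 are the alternative ubiquitin ligases of PRC1, and PCGF2 and BMI1 are the alternative PCGF subunits of canonical PRC1. The stretches are the 40 aligned codons with the most identical amino acids in each pair, taken from GENCODE M21 transcripts on GRCm38 and written 5′ to 3′ in coding sense. Capitals mark bases that differ within the pair.
Ring1 (chromosome 17, minus strand, codons 75 to 114): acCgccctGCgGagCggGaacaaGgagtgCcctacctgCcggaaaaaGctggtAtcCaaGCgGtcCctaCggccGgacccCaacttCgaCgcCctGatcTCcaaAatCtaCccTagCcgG
Rnf2 (chromosome 1, minus strand, codons 78 to 117): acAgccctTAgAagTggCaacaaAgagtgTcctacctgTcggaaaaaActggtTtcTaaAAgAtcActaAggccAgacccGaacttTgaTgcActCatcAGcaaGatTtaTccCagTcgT
Pcgf2 (chromosome 11, minus strand, codons 1 to 40): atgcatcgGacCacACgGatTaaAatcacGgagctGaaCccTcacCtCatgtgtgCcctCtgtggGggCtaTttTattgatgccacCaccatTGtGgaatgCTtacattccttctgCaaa
Bmi1 (chromosome 2, plus strand, codons 1 to 40): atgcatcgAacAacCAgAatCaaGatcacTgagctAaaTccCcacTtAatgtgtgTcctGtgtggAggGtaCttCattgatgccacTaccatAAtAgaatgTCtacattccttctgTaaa

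The Ring1 and Rnf2 stretches encode the same amino acid at all 40 codons yet differ at 31 of 120 bases, and 26 of these stand at the third position of a codon. Of the 31 differing bases 27 are G or C in Ring1 and 6 in Rnf2, and the GC content of the stretch is 62.5% in Ring1 and 45% in Rnf2. In the second pair 38 of 40 codons encode the same amino acid and 26 bases differ, of which 18 are G or C in Pcgf2 and 9 in Bmi1. Over the whole coding sequence GC content was 62.6% for Ring1, 45.1% for Rnf2, 56.9% for Pcgf2 and 43.9% for Bmi1. The chosen pairs were picked after their values had been seen.

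Of the 6 genes of the PRC2 core none passed 2-fold (against 16.5% of all genes in either direction), and Suz12 and Rbbp4 lay farthest from equal levels. Over the 6 genes the median log2 ratio was −0.19 (−0.02 with the trend removed). Ezh2 encodes the main histone methyltransferase of dividing cells and had 1378 counts (59.0 CPM) in UKS, against 1766 counts (66.9 CPM) in KS, a log2 ratio of −0.18 (0.06 with the trend removed). Its paralog Ezh1, which encodes a less active methyltransferase, had 507 counts in UKS and 555 in KS, and the interval of the ratio included equal levels (1.03 [0.914 to 1.17]). Eed, the subunit that reads the methyl mark, had 41.1 CPM in UKS and 47.3 CPM in KS. Ezh2 was thus 1.13-fold lower [1.06 to 1.22] and Eed 1.15-fold lower [1.06 to 1.25] in UKS.

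Suz12, the scaffold on which PRC2 assembles, stood just inside the threshold. The gene (ENSMUSG00000017548) lies at 79993106 to 80034123 of chromosome 11, on the plus strand. It had 1342 counts in UKS, against 3001 in KS, 1.98-fold lower [1.85 to 2.11]. As counted its log2 ratio was −0.97, which the trend removal brought to −0.36. A lincRNA gene on the other strand, Gm26563, overlaps 178 of its exonic bases and had 2 counts in UKS and 6 in KS. With DESeq2 size factors in place of TMM Suz12 passed 2-fold, the PRC2 gene that did.

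The histone-binding subunits RBBP4 and RBBP7, which PRC2 shares with other chromatin complexes, went opposite ways. Rbbp4 had 9407 counts (403 CPM) in UKS, against 8127 (308 CPM) in KS, a ratio of 1.31 [1.27 to 1.35]. X-linked Rbbp7 had 7141 counts (306 CPM) in UKS, against 9494 (360 CPM) in KS, 1.18-fold lower [1.14 to 1.21]. Per kilobase the ratio of Rbbp4 to Rbbp7 was thus 0.671 in UKS and 0.436 in KS, 1.54-fold higher [1.47 to 1.61]. Their transcripts have nearly equal GC content (43.8% and 44.7%), and the difference between their log2 ratios came to 0.62 as counted, or 0.91 once the trend was removed, where Rbbp4 had the highest value of all 35 genes (0.83). Rbbp4 shares 782 exonic bases with Sync on the other strand, a gene with 42 counts in UKS and 44 in KS. Rbbp7 shares 174 with Txlng, also on the other strand, which had 149 counts in UKS and 384 in KS.

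The accessory subunits that define PRC2.1, the form guided to CpG-rich DNA, divided by paralog. Mtf2, Phf1 and Phf19 encode the alternative Polycomb-like proteins of this form. Mtf2 had 625 counts in UKS, against 1051 in KS, 1.49-fold lower [1.35 to 1.64]. Phf19 had 638 counts in UKS, against 477 in KS, 1.51-fold higher [1.34 to 1.71]. Per kilobase the ratio of Phf19 to Mtf2 was 1.11 in UKS and 0.493 in KS. Phf1 had 48.6 CPM in UKS and 39.96 CPM in KS, a ratio of 1.22 [1.12 to 1.32]. Its value is uncertain, since 1370 of its exonic bases overlap Cuta on the other strand, a gene with 1038 counts in UKS and 795 in KS. Mtf2 likewise overlaps Tmed5 by 395 exonic bases, and Tmed5 had 596 counts in UKS against 2342 in KS. With the trend removed Mtf2 had a log2 ratio of 0.31, Phf19 of 0.40 and Phf1 of −0.15, so the order of the Polycomb-like genes depended on that step.

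Epop, a PRC2.1 adaptor that links the complex to the elongin proteins, had 522 counts in UKS and 417 in KS, a ratio of 1.42 [1.24 to 1.61] and a log2 ratio of 0.48 that was 0.05 with the trend removed. The PRC2.2 cofactors stood close to level. Jarid2, which encodes a cofactor that recognizes ubiquitinated H2A, had 363 counts in UKS and 380 in KS (1.08 [0.933 to 1.25]). Aebp2, whose product acts with JARID2, had 2471 counts in UKS and 3250 in KS, 1.16-fold lower [1.104 to 1.23]. On the trend-removed scale both were above 0, at 0.37 for Jarid2 and 0.60 for Aebp2.

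**Figure D2:**
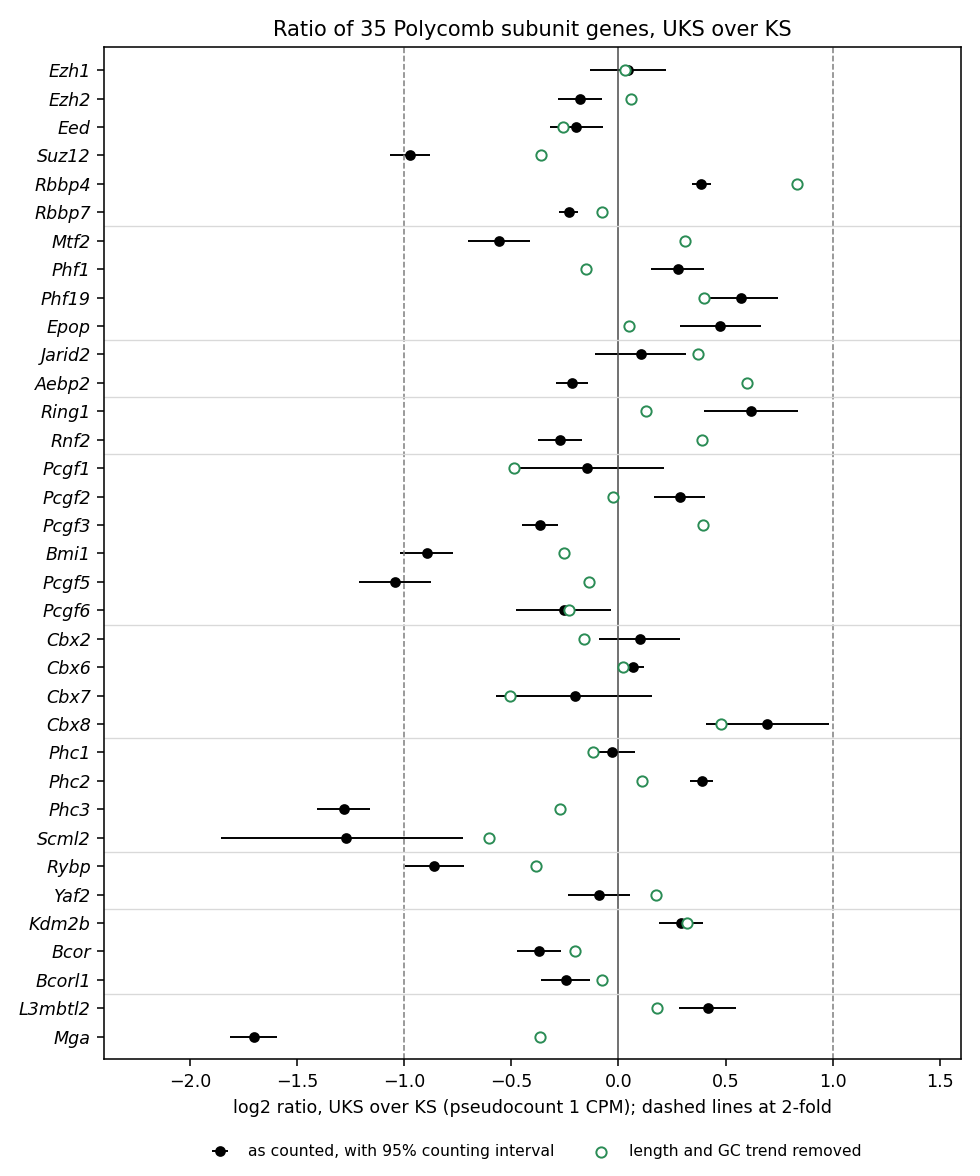
Log2 ratio of UKS over KS for each subunit gene, as counted with its 95% counting interval (black) and with the length and GC trend removed (green circles); dashed lines mark 2-fold. As counted Mga, Phc3, Scml2 and Pcgf5 lie left of −1, and with the trend removed all 35 genes lie within 2-fold, between −0.61 and 0.83.

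The genes of the catalytic subunits of PRC1 had ratios on opposite sides of 0. Ring1 had 412 counts (17.6 CPM) in UKS, against 294 (11.1 CPM) in KS, 1.58-fold higher [1.36 to 1.85]. Rnf2, the more abundant ligase gene, had 1331 counts (57.0 CPM) in UKS, against 1822 (69.0 CPM) in KS, 1.21-fold lower [1.13 to 1.30], with a log2 ratio of −0.27 as counted that trend removal turned to 0.39. Per kilobase of transcript Ring1 made up 32.8% of the summed level of the pair in UKS and 20.3% in KS, so Rnf2 kept the larger share in both libraries. The sum itself was nearly equal, 26.5 CPM per kilobase in UKS and 27.04 in KS. The difference between the paralogs' log2 ratios came to 0.89 as counted, or −0.26 once the trend was removed. In the stretches above, Ring1 was the GC-richer gene of the pair, and it was the one with the higher ratio as counted. Rnf2 shares 158 exonic bases with Trmt1l on the other strand, which had 691 counts in UKS and 835 in KS.

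PCGF subunits decide which kind of PRC1 forms, and 5 of their 6 genes had ratios below 0 as counted (83.3%, against 48.1% of all genes). Their median log2 ratio was −0.31 and their median GC content 45.1%. All genes with a GC content of 44 to 46% had a median log2 ratio of −0.24. Pcgf5, a partner in variant PRC1, was the PCGF gene past the threshold. The gene (ENSMUSG00000024805) lies at 36348309 to 36460970 of chromosome 19, on the plus strand. It had 408 counts (17.5 CPM) in UKS, against 978 (37.0 CPM) in KS, 2.12-fold lower [1.89 to 2.39], with log2 ratios of −1.04 as counted and −0.14 with the trend removed. Bmi1, known for repressing the senescence locus Ink4a/Arf in fibroblasts, had 783 counts (33.5 CPM) in UKS, against 1668 (63.2 CPM) in KS, 1.88-fold lower [1.73 to 2.05]. Pcgf2, its paralog in canonical PRC1, was the PCGF gene that stood above 0, with 1207 counts in UKS against 1115 in KS, a ratio of 1.22 [1.13 to 1.33], although its log2 ratio was −0.02 with the trend removed. Per kilobase the ratio of Bmi1 to Pcgf2 was 0.449 in UKS and 1.03 in KS, 2.31-fold lower [2.05 to 2.59]. With the trend removed the difference between their log2 ratios was −0.23, against −1.18 as counted.

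As counted, the other PCGF genes differed less. Pcgf3, which forms variant PRC1 in parallel with Pcgf5, had 1941 counts in UKS and 2837 in KS, 1.29-fold lower [1.22 to 1.37], and its log2 ratio of −0.37 as counted became 0.39 with the trend removed. Pcgf6, of the PRC1.6 form, had 294 counts in UKS and 402 in KS, 1.21-fold lower [1.04 to 1.41], and Pcgf1, of the PRC1.1 form, had 117 counts in UKS and 149 in KS with an interval that included equal levels (0.888 [0.691 to 1.14]). On the trend-removed scale Pcgf1, at −0.49, was the PCGF gene farthest from 0. Pcgf6 was at −0.23, Bmi1 at −0.25 and Pcgf5 at −0.14 on that scale. Per kilobase the summed level of the 6 PCGF genes was 54.9 CPM in UKS and 67.5 CPM in KS. Pcgf2 made up 37.9% of it in UKS and 25.2% in KS, and Bmi1 16.99% in UKS and 26.1% in KS. Pcgf2 was thus the leading PCGF transcript in UKS, while Bmi1 and Pcgf2 were about level in KS. The KS order depended on the length used. With merged exon lengths Bmi1 made up 32.8% in KS and Pcgf2 24.7%.

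As counted, the CBX subunits, which bind methylated histone H3 and anchor canonical PRC1, showed 1 sizeable difference among 4 genes. Cbx8 had 258 counts (11.1 CPM) in UKS, against 170 (6.44 CPM) in KS, 1.72-fold higher [1.41 to 2.09], the highest ratio among the 35 genes as counted (log2 0.70, and 0.48 with the trend removed). Cbx6 dominated the group with 5069 counts (217 CPM) in UKS and 5475 (207 CPM) in KS, a ratio of 1.05 [1.01 to 1.09]. Cbx2 (451 counts in UKS, 474 in KS) and Cbx7 (112 in UKS, 150 in KS) had intervals that included equal levels. Cbx2 was at −0.16 with the trend removed, against 0.10 as counted, and Cbx7 at −0.51, against −0.20 as counted. Cbx6 held 79.6% of the summed level of these 4 genes per kilobase in UKS and 81.3% in KS. Cbx7 shares 100 exonic bases with Apobec3 on the other strand (1114 counts in UKS, 968 in KS), so its low count is uncertain.

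Polyhomeotic subunits polymerize and compact Polycomb chromatin, and among the 14 pairs compared Phc2 and Phc3 were the farthest apart. Phc3 (ENSMUSG00000037652) lies at 30899371 to 30969415 of chromosome 3, on the minus strand. It had 747 counts (32.0 CPM) in UKS, against 2093 (79.3 CPM) in KS, 2.48-fold lower [2.28 to 2.70]. Phc2 had 5832 counts (250 CPM) in UKS, against 5029 (190 CPM) in KS, 1.31-fold higher [1.26 to 1.36]. Phc1 was nearly level, with 1313 counts in UKS and 1516 in KS (0.979 [0.909 to 1.05]). Per kilobase the ratio of Phc2 to Phc3 was 21.7 in UKS and 6.68 in KS, 3.25-fold higher [2.96 to 3.56]. Per kilobase Phc2 held 79.5% of the polyhomeotic level in UKS and 69.8% in KS, and Phc3 held 3.67% in UKS and 10.5% in KS. Removal of the trend left a difference of 0.38 between the log2 ratios of Phc2 and Phc3, against 1.67 as counted.

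Scml2, an X-linked gene best known for a Polycomb role in the mouse germline, was the least abundant subunit gene in both libraries. It (ENSMUSG00000000037) lies at 161117193 to 161258213 of chromosome X, on the plus strand. Scml2 had 35 counts (1.499 CPM) in UKS, against 133 (5.04 CPM) in KS, 3.36-fold lower [2.30 to 5.03] as a ratio of CPM. Its log2 ratio with the pseudocount was −1.27, and −0.61 with the trend removed, the lowest of the 35 on that scale. The other X-linked members were Rbbp7, Bcor and Bcorl1, and all 4 had ratios below 0. Among the 420 X-linked genes tested the median log2 ratio was −0.29 (−0.07 with the trend removed) and 19.5% were at least 2-fold lower, so the X-linked subunits lay on the side on which that chromosome lay in these lines.

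**Figure D3:**
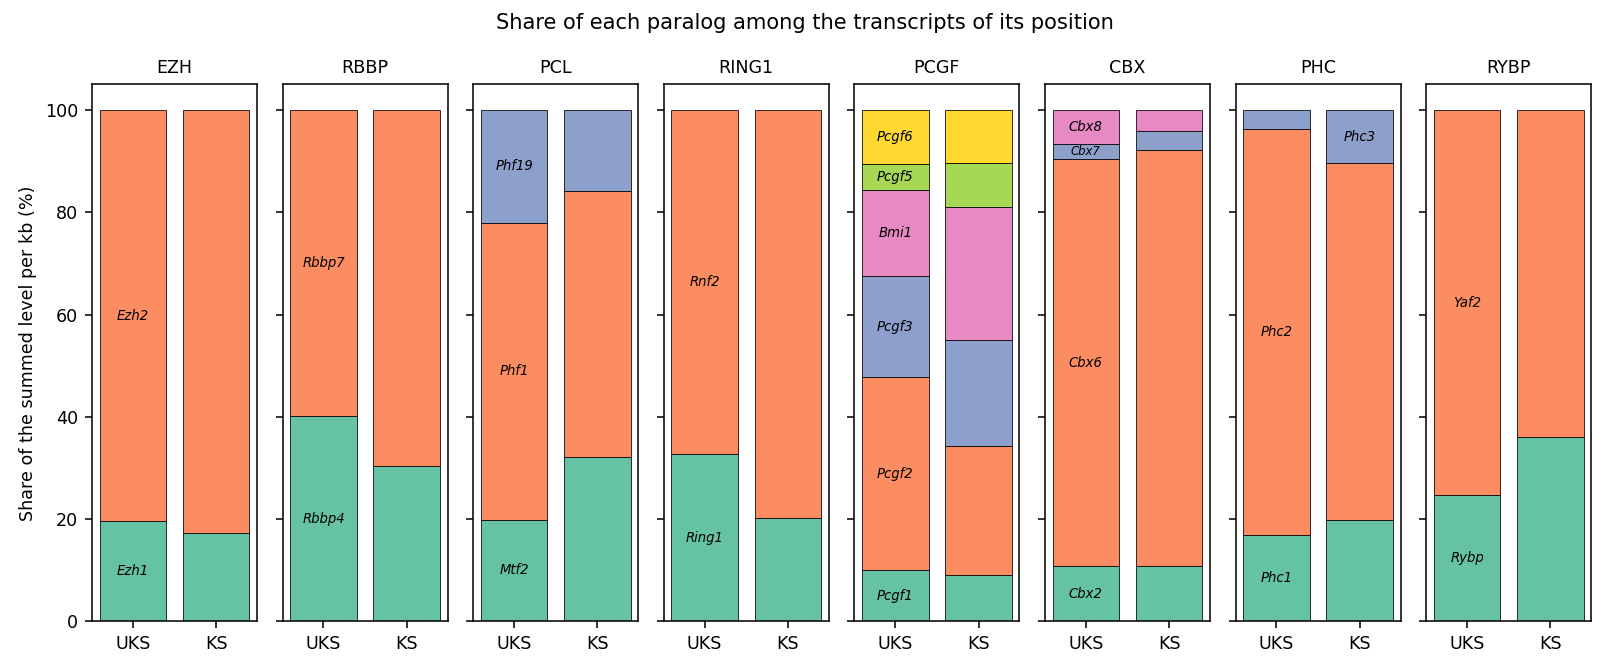
Share of each paralog in the summed level per kilobase of transcript (%) at 8 positions of the complexes, UKS left and KS right in each panel. Ring1, Pcgf2, Phc2 and Yaf2 take larger shares in UKS, and Rnf2, Bmi1, Phc3 and Rybp larger shares in KS.

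RYBP and YAF2 are the alternative subunits that mark variant PRC1 and stimulate H2A ubiquitination. Rybp had 641 counts (27.5 CPM) in UKS, against 1337 (50.6 CPM) in KS, 1.84-fold lower [1.68 to 2.03]. Yaf2 had 731 counts in UKS and 882 in KS, with an interval that included equal levels (0.937 [0.848 to 1.03]) and a log2 ratio of −0.09 that was 0.17 with the trend removed. Rybp held 24.6% of the summed level of the pair per kilobase in UKS and 36.1% in KS. These transcripts differ little in GC content (43.6% and 42.3%) but much in length (4503 and 1676 nt), and the difference between their log2 ratios came to −0.77 as counted, or −0.56 once the trend was removed.

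The genes of PRC1.1, which KDM2B directs to unmethylated CpG islands, lay on both sides of equal levels as counted. Kdm2b had 1595 counts in UKS and 1467 in KS, a ratio of 1.23 [1.14 to 1.32]. It shares 627 exonic bases with Rnf34 on the other strand, which had 739 counts in UKS and 700 in KS. The corepressor genes Bcor and Bcorl1 were lower by similar amounts. Bcor had 1305 counts in UKS and 1918 in KS (1.30-fold lower [1.21 to 1.40]), and Bcorl1 had 1073 in UKS and 1444 in KS (1.19-fold lower [1.099 to 1.29]), and the interval of the change in the ratio of Bcor to Bcorl1 included 1 (0.916 [0.824 to 1.02]). In PRC1.6, which silences germline genes, the subunits parted. Mga, the DNA-binding scaffold of that form (ENSMUSG00000033943), lies at 119897228 to 119969581 of chromosome 2, on the plus strand. It had 859 counts (36.8 CPM) in UKS, against 3222 (122 CPM) in KS. This was 3.32-fold lower [3.08 to 3.58], with the lowest log2 ratio of the 35 genes on the pseudocount scale (−1.70). L3mbtl2, its histone-binding partner, had 1032 counts in UKS and 868 in KS, 1.34-fold higher [1.23 to 1.47]. It shares 1023 exonic bases with Chadl on the other strand, which had 31 counts in UKS and 40 in KS. With the trend removed Mga was at −0.37 and L3mbtl2 at 0.18.

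The ratios of the subunit genes ran along transcript composition as those of other genes did. Across the 35 genes, which share the same pair of libraries and are not replicates, Spearman's correlation of the log2 ratio was 0.75 with GC content and −0.43 with length, against 0.52 and −0.40 across 12997 genes. The 4 genes past 2-fold were all among the 10 subunit genes with transcripts of at least 4000 nt and a GC content below 45%, and Mga and Phc3 have the longest transcripts of the 35 (13931 and 10976 nt). In this class 40% of the subunit genes were at least 2-fold lower, against 38.5% of the 1492 genes of the same class in the transcriptome. Among the other 25 subunit genes none was, against 7.11% of other genes. The share of lower subunit genes in the class was thus near its background. The class limits were set after the values had been seen. Of 14 pairs compared, the GC-richer member had the higher ratio in 10. Mtf2 and Jarid2, a pair among the 14 and among the 10, are not paralogs. Some genes, such as Mtf2 and Phc2, stand in several pairs, so the pairs overlap. With the trend removed, 11 of the 14 differences were smaller (all but Rbbp4 and Rbbp7, Cbx6 and Cbx7, and Cbx2 and Cbx8) and none reached 2-fold, against 3 as counted. Below a GC content of 45%, 9 of the 10 longer and all 5 shorter subunit genes had ratios below 0, against 88.5% and 71.8% of all genes of these classes. At or above it, 4 of the 7 longer and 9 of the 13 shorter ones had ratios above 0, against 40.9% and 71.7% of all genes. The shares were near those of all genes for the longer AT-rich genes (90%) and the shorter genes at or above 45% GC (69.2%). They were larger for the shorter AT-rich genes (100%) and the longer genes at or above 45% GC (57.1%). Those classes hold 5 and 7 subunit genes, too few to judge a share. Rbbp4 was the exception among the AT-rich genes. The part of transcript composition in these ratios cannot be told apart from that of the deletion.

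**Figure D4:**
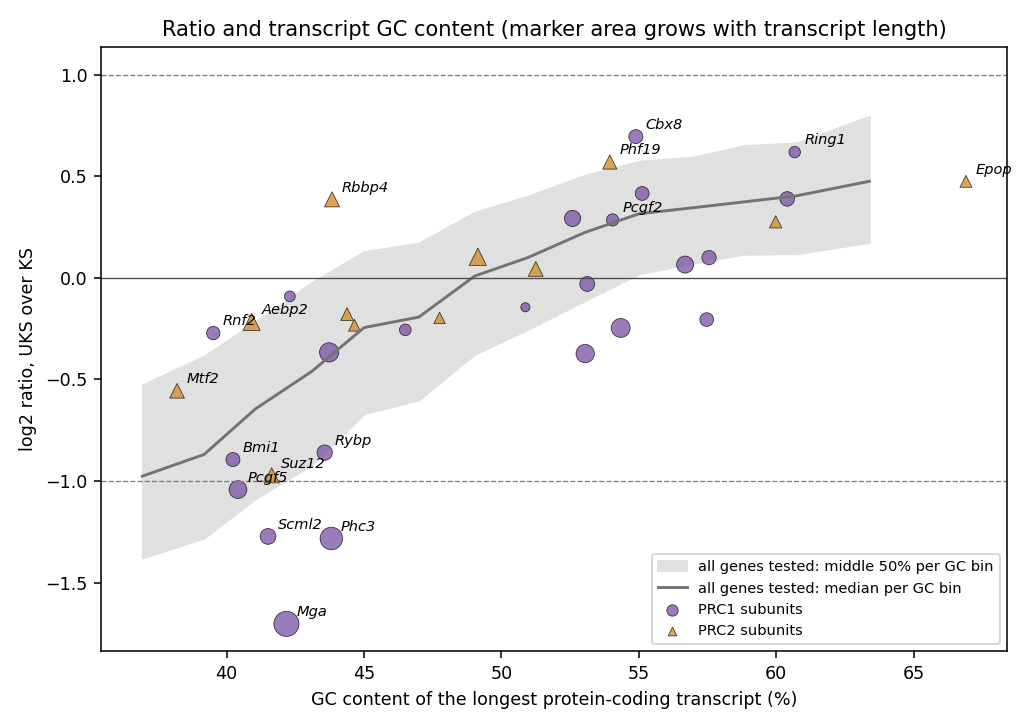
Log2 ratio of UKS over KS against the GC content (%) of the longest protein-coding transcript for PRC1 (circles) and PRC2 (triangles) genes, over the median and the middle 50% of all genes per GC bin (grey); marker area grows with transcript length. Mga, Phc3 and Scml2 lie below the grey band at a GC content of 41.5 to 43.8%, and Rbbp4 lies above it at 43.8%.

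Per kilobase of transcript, the order of the subunit genes was much the same in both libraries. Rbbp7, Rbbp4, Phc2 and Cbx6 held the first 4 places in each, with 136, 91.4, 63.3 and 37.4 CPM per kilobase in UKS and 160, 69.9, 48.2 and 35.7 in KS. Scml2 and Cbx7 held the last places with 0.309 and 1.42 CPM per kilobase in UKS and 1.04 and 1.68 in KS. Suz12 ranked 14 in UKS and 5 in KS, Mga ranked 32 in UKS and 21 in KS, and Phf19 ranked 21 in UKS and 30 in KS. Without replicates, genes with neighbouring levels cannot be put in order.

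Genes that act with or against Polycomb were described from lists of 59 symbols, of which 55 were found and 52 reached a mean of 1 CPM. Of these 52 genes 5 were at least 2-fold lower in UKS (9.62%, near the 10.7% of all genes). None was at least 2-fold higher, against 5.81% of all genes, and the median log2 ratio was −0.21. With the trend removed none passed 2-fold (against 5.49% of all genes higher and 4.98% lower) and the median was −0.03. In the PR-DUB complex, whose enzyme BAP1 also removes ubiquitin from H2A, 1 of 10 genes was at least 2-fold lower, near that background. Asxl3 (55 counts in UKS, 139 in KS) was 2.24-fold lower [1.62 to 3.11] without the pseudocount but lay within 2-fold with it (log2 −0.90). Asxl2, a cofactor of BAP1, had 682 counts in UKS, against 2046 in KS, 2.65-fold lower [2.43 to 2.90], while Bap1 had 1994 counts in UKS and 1939 in KS, a log2 ratio of 0.21. Of 24 other PRC1-associated genes, a list that also takes in heterochromatin proteins, none passed 2-fold, against 16.5% of all genes in either direction. Cbx5 (log2 −0.85), Sfmbt2 (−0.78) and the repressor gene E2f6 of PRC1.6 (−0.75) were the farthest from 0. E2f6 was at −0.88 with the trend removed, so it kept its distance where Cbx5 (0.08) did not.

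Of 3 measured genes that modify PRC2 action, 2 were at least 2-fold lower, against 10.7% of all genes. Lcorl, which encodes a PRC2.1 accessory protein, had 85 counts in UKS, against 480 in KS, 4.99-fold lower [3.96 to 6.37], and Nsd1, a methyltransferase gene whose mark counters PRC2, had 1727 counts in UKS, against 4028 in KS, 2.06-fold lower [1.95 to 2.18]. The trend-removed log2 ratios were −0.88 for Lcorl and −0.08 for Nsd1. The demethylase genes Kdm6a and Kdm6b, whose products remove the PRC2 mark, were within 2-fold at −0.50 and 0.03. Of 15 trithorax and COMPASS genes, which oppose Polycomb silencing, 2 were at least 2-fold lower (13.3%), a share near the 10.7% of all genes. The methyltransferase gene Kmt2c had 357 counts in UKS, against 1000 in KS (2.48-fold lower [2.19 to 2.80]), and Psip1 had 1925 counts in UKS, against 4566 in KS (2.098-fold lower [1.99 to 2.21]). Kmt2a stood just inside the threshold at −0.99. With the trend removed these were at −0.22 for Kmt2c, −0.64 for Psip1 and −0.02 for Kmt2a.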

How the data were processed

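RNA was measured in 1 UKS and 1 KS library. Per the labels' protocols, RNA was extracted with TRIzol and libraries were made with a TruSeq RNA kit. Per the submitters' processing notes, HISAT2, StringTie and GRCm38.p5 were used, with no role stated. Which program counted reads, with which annotation and strand setting, is not given in the sources used here. Expected counts, which are estimated counts for each gene without depth scaling, were deposited by the authors, and 21.5% of genes above 0 in UKS and 23.1% in KS were not whole, so counts were rounded. Of the 35 subunit genes 9 had such an estimate and 13 overlap exons of another gene. Without a known strand setting, reads of such genes may be misassigned.

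TMM factors were 1.01 (UKS) and 0.994 (KS), from edgeR 4.0.16 in R 4.3.3. At these depths 3 counts equal 0.128 CPM in UKS and 0.114 CPM in KS. Intervals were computed with scipy 1.17.1 (exact Clopper-Pearson), and those of the change in a paralog ratio, on counts without a pseudocount, with a normal approximation to the log ratio of counts. Coordinates, length and GC content of the longest protein-coding transcript came from GENCODE M21 (GRCm38). The trend was a robust regression (statsmodels 0.14.6, Tukey's biweight) on cubic polynomials in GC content, held within 35 to 65%, and in log2 length, held within 200 to 20000 nt. Any biological difference tied to length or GC is removed with it. The fits and intervals were checked on simulated data. Alternatives were DESeq2 1.42.0 size factors, library totals, pseudocounts of 0.25 and 5 CPM, no filter, a 1.5-fold threshold, counts as deposited, merged exon lengths and the trend.

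Members, lists and rules were chosen with earlier results of these data known. The text names all 35 members, other list genes past 2-fold and up to 3 per list with the largest absolute log2 ratio; Bap1 and the overlapping genes were named besides, after their values were seen. Itgam was left out because its symbol is on several rows. A further engineered alteration that both lines carry is not reported here.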

Additional observations from a re-analysis of the deposited data

How the results depend on the processing

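Scaling hardly touched the counts: with DESeq2 size factors 5 subunit genes were at least 2-fold lower, among them 1 PRC2 gene (Suz12), and with library totals 4 were. With a pseudocount of 5 CPM 2 were lower (Mga and Phc3, both PRC1), and over all genes 412 were higher and 836 lower, against 756 and 1396. With the length and GC trend removed 0 were lower, also 0 of PRC1 and 0 of the other pathway genes, and 647 of all genes; the median log2 ratios were −0.024 for all subunit genes, −0.034 for the other pathway genes and 0.05 for PRC2 (−0.07 as counted). At a 1.5-fold threshold 7 subunit genes were lower, 1 of them of PRC2, against 21.1% of all genes, and 2 were higher (both PRC1), against 15.4%; so were 16 other pathway genes lower and 0 higher, and 2745 lower and 2001 higher of all genes. All 35 genes kept the sign of their ratio under the alternatives other than trend removal, under which 26 did. Merged exon lengths moved 34 of 48 paralog shares beyond counting error. No paired analysis was possible because each group has 1 library, and for the same reason leaving out a replicate was not run. Depth limits Scml2, Cbx7 and Pcgf1 most, and no value has a replicate check.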

Other observations

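Summed over the paralogs of a position, levels per kilobase of transcript are given for all 8 positions. The RING1 position summed to 26.5 CPM in UKS and 27.04 CPM in KS, the RBBP position to 228 CPM in UKS and 230 CPM in KS, and the EZH position to 26.3 CPM in UKS and 29.0 CPM in KS. The 4 CBX genes described summed to 47.0 CPM in UKS and 43.9 CPM in KS, and the Polycomb-like position to 33.1 CPM in UKS and 30.5 CPM in KS. The RYBP position was lower in UKS, at 24.8 CPM against 31.2 CPM in KS, as was the PCGF position, at 54.9 CPM against 67.5 CPM in KS, and the PHC position higher, at 79.5 CPM against 69.1 CPM in KS. The difference between Cbx2 and Cbx8, whose genes lie close together on chromosome 11, came to −0.60 on the log2 scale with the pseudocount as counted, or −0.64 once the trend was removed.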
